A study of Mus musculus with 6 samples.

Results

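The genes described here encode core subunits of the Polycomb repressive complexes PRC1 and PRC2. They were taken by symbol from a list of 10 (Ezh1, Ezh2, Eed, Suz12, Bmi1, Ring1, Rnf2, Cbx2, Cbx7 and Cbx8), and all 10 were found among the 18778 genes named in any of the 4 gene tables that the authors deposited. Those tables name genes through listed peaks, and a gene in none of them was left out. Shares of all genes given below are therefore shares of these 18778 and not of the genome. Each start site, and 15 kb on either side of it, was scored with the 4 deposited peak lists. The cells were mouse, of strain C57BL/6. Neural stem cells (NSCs), derived from embryonic stem cells, were at passages 25 to 30 and day 0, negative for the RedStar reporter and grown with FGF2 and EGF. Neurons were the progeny of these NSCs at day 11, sorted as positive for RedStar, a red fluorescent protein under the Tau promoter, so that the sort selects for activity of that promoter. Chromatin of each cell type was immunoprecipitated for H3K4me3, which marks active and poised promoters, and for H3K27me3. Each antibody gave 1 library in each cell type, beside 1 input, and precipitations of total H3 and IgG were not sequenced. No difference between NSCs and neurons therefore has a replicate check, no test was possible, and the intervals given below are exact 95% binomial intervals that cover counting error only.

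PRC2 methylates histone H3 at lysine 27. Ezh2 and its paralogue Ezh1 are its alternative catalytic subunits, Suz12 is the scaffold, and Eed binds the methyl mark and stimulates the enzyme. PRC1 ubiquitinates histone H2A through Ring1 or Rnf2 (Ring1B), each paired with a PCGF protein such as Bmi1, and in its canonical form it carries a CBX protein (Cbx2, Cbx7 or Cbx8 among others) whose chromodomain binds H3K27me3. In the nervous system Ezh2 is known as the enzyme of dividing progenitors, Ezh1 is retained in cells that have stopped dividing, and Bmi1 is known for its part in neural stem cell self-renewal.

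A start site was called marked when a listed peak lay within 1000 bp of it. Most Polycomb genes carried H3K4me3 and a minority carried H3K27me3, as among all genes in the tables. In NSCs 9 of the 10 had H3K4me3 at the start site, against 70.4% of all genes in the tables, and in neurons the same 9 had it, against 61.7%. None of the 10 lost H3K4me3 at the deposited start site and none gained it, where 9.55% and 0.831% of all genes did. H3K27me3 lay at 3 of the 10 in NSCs (Bmi1, Cbx2 and Cbx7), against 19.2% of all genes, and at 2 in neurons (Cbx2 and Cbx7), against 17.9%. By this window 1 gene, Bmi1, lost H3K27me3, against 4.85% of all genes, and none gained it, against 3.56%. The members' H3K27me3 shares were near the background of all genes, and the calls at Bmi1 in NSCs and at Cbx2 and Cbx7 in neurons rest on peaks 755, 677 and 950 bp from the start site, near the edge of the window.

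**Figure D1:**
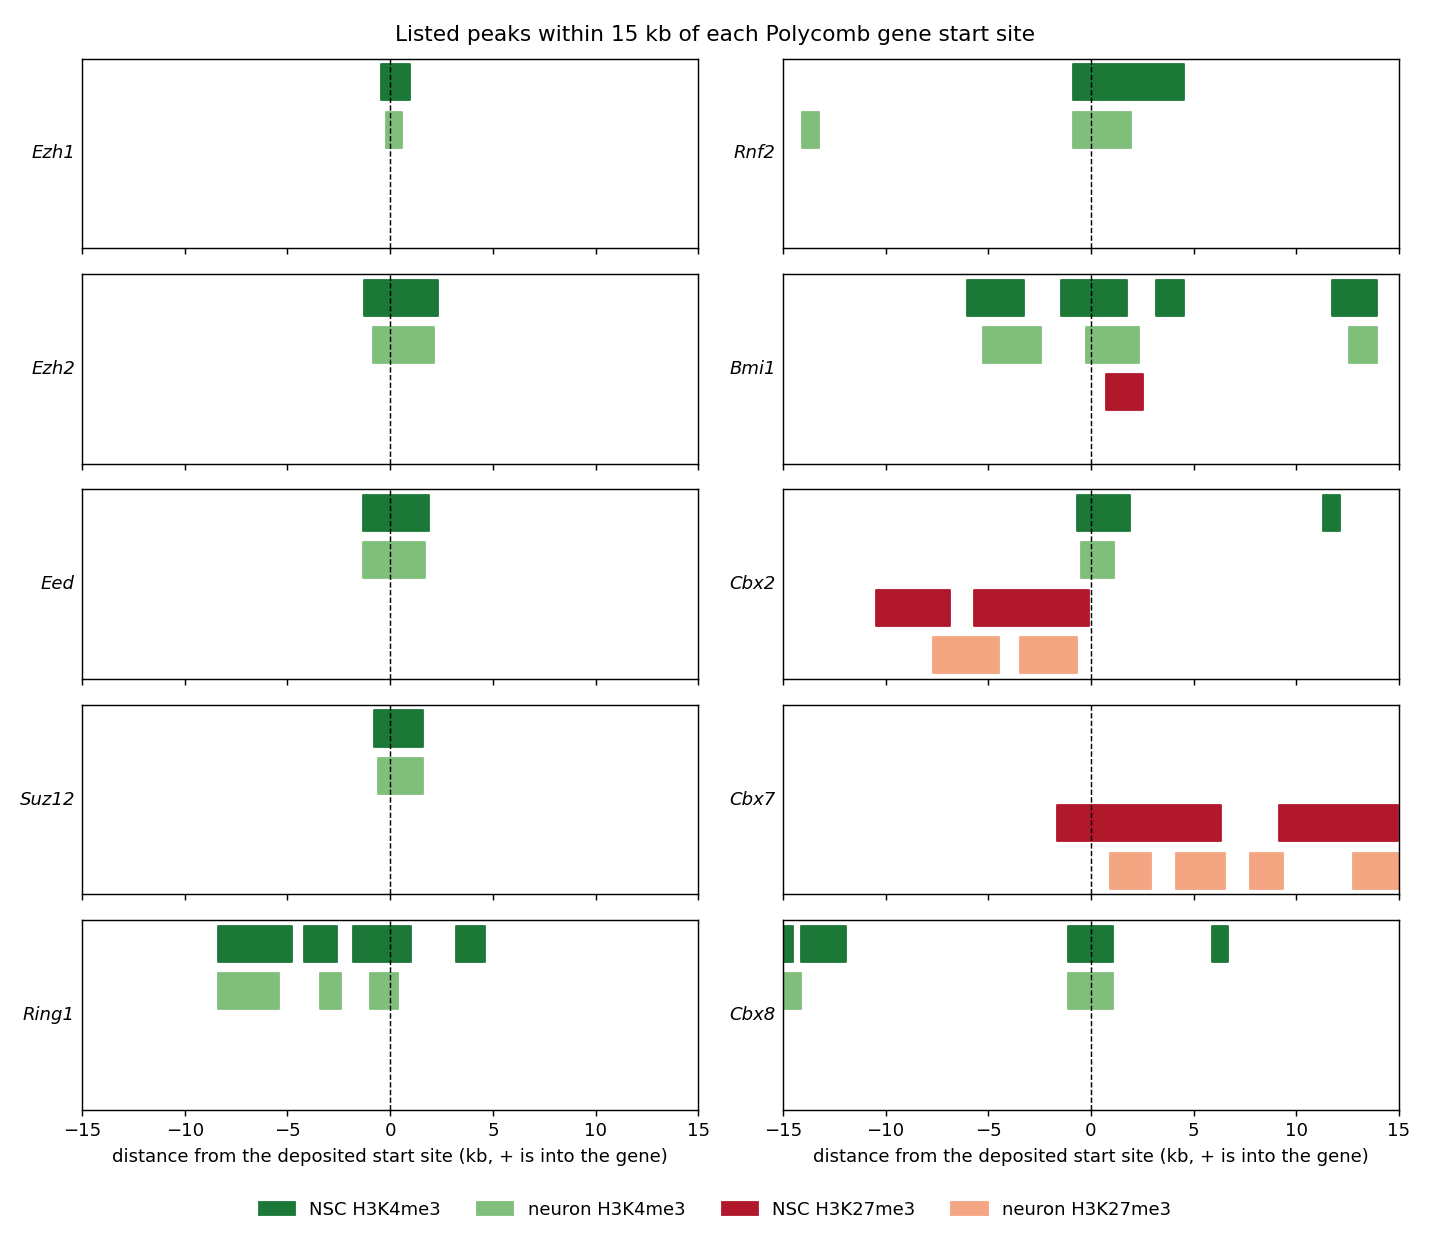
Peaks listed within 15 kb of the deposited start site (dashed line) of each Polycomb gene; the x axis is distance in kb with positive values into the gene, and the 4 rows in each panel are NSC H3K4me3, neuron H3K4me3, NSC H3K27me3 and neuron H3K27me3. The 4 PRC2 genes each have a single H3K4me3 peak over the start site in both cell types and no H3K27me3, whereas H3K27me3 appears at Cbx2, Cbx7 and, in NSCs, Bmi1.

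Enrichment for H3K4me3 was lower in neurons, which bears on every comparison of the cell types below. Across 397 H3K4me3 peaks of identical bounds the neuron to NSC ratio of summed reads was 0.399 for immunoprecipitated reads and 0.775 for input. Across 114 such H3K27me3 peaks the ratios were 0.981 and 0.784. Reads inside H3K4me3 peaks totalled 3623654 in NSCs but 983266 in neurons, and those inside H3K27me3 peaks 3272324 and 3161819. Among cell type markers, the NSC markers Nes, Sox2, Fabp7, Olig2 and Hes5 had H3K4me3 in both cell types. Among 4 neuronal markers in the tables, Tubb3 and Mapt had H3K4me3 in both, Dcx in neurons alone and Snap25 in neither. The Tubb3 peak held 58 reads across 1400 bp in NSCs and 140 across 3800 bp in neurons. That of Mapt held 278 and 116, across 2800 bp in each. Mapt is the Tau gene, and the neurons were sorted by a reporter under the Tau promoter, so it is not an independent marker here. H3K27me3 marked the start sites of Tubb3 and Mapt, and of Mbp and Csf1r below, in NSCs and not in neurons, where 4.85% of all genes lost it. No H3K4me3 was called at Gfap, Mbp, Csf1r, Col1a2 or Dcn, which mark astrocytes, oligodendrocytes, microglia and fibroblasts, while Slc1a3, shared by astrocytes and radial glia, had it in both and S100b in NSCs alone. Pou5f1, Nanog and Zfp42, markers of pluripotent cells, could not be scored, since no gene table names them. In bulk samples, fewer cells with a mark and less of the mark per cell cannot be told apart, and the part of other cell types in the results below was not tested.

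The 4 PRC2 genes had the simplest pattern. Ezh2 (ENSMUSG00000029687) is on chromosome 6, from 47480273 to 47545340 on the minus strand of mm9. Its NSC H3K4me3 peak, from 47543000 to 47546599, held 408 immunoprecipitated and 48 input reads, and its neuron peak, from 47543200 to 47546199, held 156 and 35. The peak ran from 1259 bp upstream of the start site to 2340 bp into the gene in NSCs and from 859 bp to 2140 bp in neurons, so both lay over the start of transcription and leaned into the gene. Its fold over input, as the authors give it, was 8.71 in NSCs (interval 6.44 to 12) and 4.43 in neurons (3.05 to 6.59).

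Ezh1, the other catalytic subunit, had the narrowest H3K4me3 peak of the marked members in each cell type. The gene (ENSMUSG00000006920) is on chromosome 11, from 101052429 to 101087777 on the minus strand. In NSCs the peak spanned 1400 bp with 146 reads over 17 input reads, and in neurons 800 bp with 42 over 8. Its width exceeded that of 13.0% of the 13218 marked genes in NSCs and 6.54% of the 11580 in neurons, while the Ezh2 peak, at 3600 and 3000 bp, exceeded 85.1% and 88.4%. Per kb of peak the paralogues were close, with 104 reads for Ezh1 and 113 for Ezh2 in NSCs and 52.5 and 52.0 in neurons. In each cell type the paralogues therefore differed more in the breadth of the peak than in its read density.

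Eed (ENSMUSG00000030619), on chromosome 7 from 97103166 to 97129493 on the minus strand, and Suz12 (ENSMUSG00000017548), on chromosome 11 from 79806608 to 79847625 on the plus strand, resembled Ezh2. In NSCs the Eed peak was 3200 bp wide and held 417 reads over 41 of input. It was 3000 bp wide in neurons with 144 over 42. The Suz12 peak was 2400 bp wide in NSCs with 313 over 28, and 2200 bp wide in neurons with 111 over 27. In neurons their folds were 3.41 (2.40 to 4.93) and 4.08 (2.66 to 6.47), below the median of 4.64 over all marked genes, whereas in NSCs they were 10.4 (7.55 to 14.7) and 11.4 (7.77 to 17.5), above the median of 9.40. All 4 intervals included the median of their library. The Eed fold exceeded that of 62.4% of marked genes in NSCs and 18.0% in neurons, and the Suz12 fold 72.3% and 35.4%. The start site of the gene Gm10386 lies 305 bp upstream of that of Suz12 on the other strand, so the Suz12 peak covers both starts.

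None of the 4 PRC2 genes had an H3K27me3 peak within 15 kb in either cell type. The nearest one to Ezh2 was 48660 bp away in NSCs and 152141 bp in neurons, and to Ezh1 147623 and 360978 bp. To Eed it was 463894 and 566307 bp, and to Suz12 316392 and 195409 bp. Of all genes in the tables, 67.1% had no H3K27me3 within 15 kb in NSCs and 67.5% in neurons, so most genes shared this.

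The promoter sequences show the kind of DNA before the RefSeq starts of these genes. They are the 250 bases before the start in RefSeq on GRCm38.p6, a build other than that of the peaks, so they were matched by gene symbol and not by position. Of the 10 members all but Cbx2 had an entry, and 8 of these 9 begin at the outer end of the RefSeq gene. Cbx7 is the exception, with a RefSeq start inside the gene. The sequences of the 2 catalytic paralogues, of the PRC2 scaffold, of Bmi1 and of Cbx8 are printed 5′ to 3′ on the gene's strand. Capitals mark matches, on either strand, to the E2F words TTTGGCGC, TTTCCCGC, TTTCGCGC and TTTGCCGC, to the E-box CACGTG, to the CCAAT box and to the cyclic AMP response element TGACGTCA. These words were chosen after the sequences had been seen.
Ezh1 (chr11:101226464-101226713, minus strand): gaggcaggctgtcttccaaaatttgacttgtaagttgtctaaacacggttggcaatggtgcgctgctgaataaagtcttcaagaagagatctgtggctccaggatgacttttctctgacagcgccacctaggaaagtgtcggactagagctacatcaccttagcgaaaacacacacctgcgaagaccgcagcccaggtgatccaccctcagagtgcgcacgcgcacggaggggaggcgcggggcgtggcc
Ezh2 (chr6:47595031-47595280, minus strand): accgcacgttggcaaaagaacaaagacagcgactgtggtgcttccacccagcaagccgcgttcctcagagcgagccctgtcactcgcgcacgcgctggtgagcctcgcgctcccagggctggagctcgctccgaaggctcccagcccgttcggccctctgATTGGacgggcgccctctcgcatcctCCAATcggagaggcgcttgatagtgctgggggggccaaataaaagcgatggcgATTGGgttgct
Suz12 (chr11:79992856-79993105, plus strand): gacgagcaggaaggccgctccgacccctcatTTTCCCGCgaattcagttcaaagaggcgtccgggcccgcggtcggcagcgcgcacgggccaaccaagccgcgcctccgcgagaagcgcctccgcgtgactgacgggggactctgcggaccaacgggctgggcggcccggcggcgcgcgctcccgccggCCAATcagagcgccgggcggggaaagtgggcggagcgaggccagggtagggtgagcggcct
Bmi1 (chr2:18676768-18677017, plus strand): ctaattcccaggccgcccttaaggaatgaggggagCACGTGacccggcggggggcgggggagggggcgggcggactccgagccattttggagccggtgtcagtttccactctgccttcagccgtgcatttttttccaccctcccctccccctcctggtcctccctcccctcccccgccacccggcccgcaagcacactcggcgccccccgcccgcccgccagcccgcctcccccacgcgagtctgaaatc
Cbx8 (chr11:119040914-119041163, minus strand): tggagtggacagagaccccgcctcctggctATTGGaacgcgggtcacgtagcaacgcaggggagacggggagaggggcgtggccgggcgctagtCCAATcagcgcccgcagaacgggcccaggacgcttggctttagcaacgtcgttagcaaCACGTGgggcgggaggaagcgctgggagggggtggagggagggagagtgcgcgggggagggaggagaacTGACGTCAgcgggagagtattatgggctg

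The 9 promoters were rich in CpG beside the median of 6 CpG over the 32851 RefSeq promoters. Suz12 had 37 CpG in its 250 bases, Ring1 30, Ezh2 23, Cbx7 23, Cbx8 22, Bmi1 21, Rnf2 20, Ezh1 14 and Eed 12. Suz12 and Ring1 had more than 97.8% and 94.1% of promoters, and Eed, the lowest, more than 66.5%. The H3K4me3 peak of Ezh1, the narrowest, thus lay at the gene with the second fewest CpG of these 9, while Eed, with fewer, had a wide peak. Ezh2 held 3 CCAAT boxes, Cbx8 held 2, Suz12 and Cbx7 held 1 each, and 33.8% of all promoters held at least 1. Among these 9, which leave out Cbx2, an E2F word was found in Suz12 alone, and it was found in 1.86% of promoters. The E-box was found in Bmi1 and Cbx8 and in 6.02%, and the cyclic AMP response element in Cbx8 and in 1.55%. These matches describe letters and not bound sites.

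**Figure D2:**
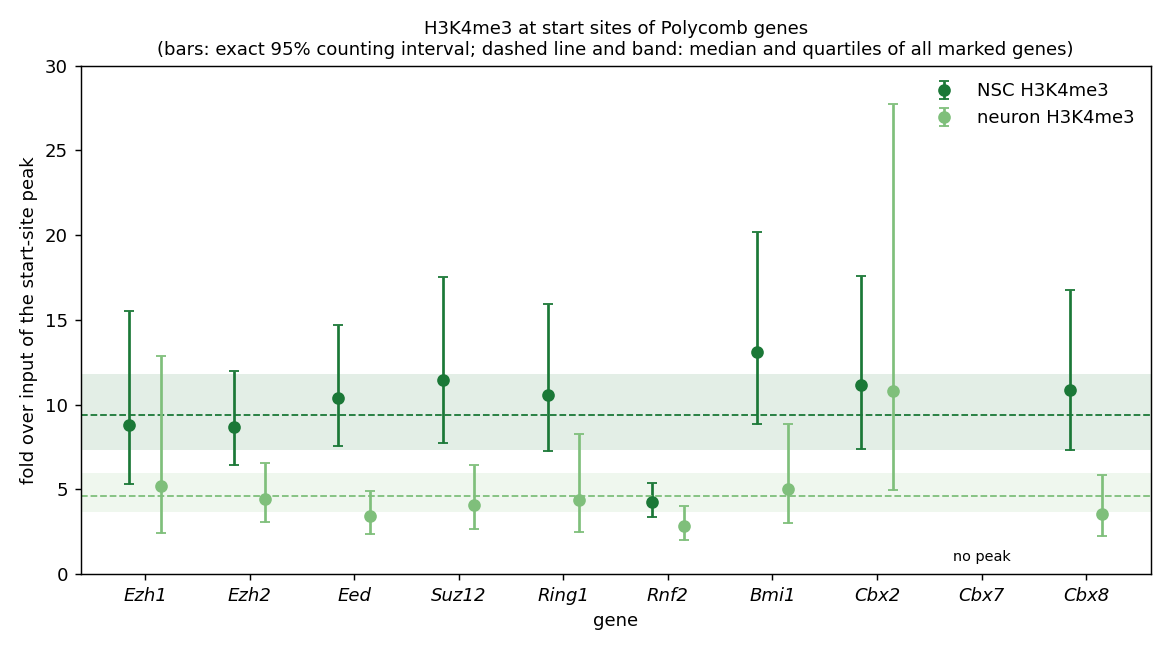
Fold over input of the H3K4me3 peak at each Polycomb gene start site (y axis) in NSCs (dark) and neurons (light), with exact 95% counting intervals; dashed lines and bands give the median and quartiles of all marked genes in the same library. Rnf2 is the lowest member in each library, Cbx2 in neurons stands at 10.8 above the band of its library, and Cbx7 has no peak.

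Among the PRC1 genes, the E3 ligases Ring1 and Rnf2 carried H3K4me3 and no H3K27me3 in both cell types. Rnf2 (ENSMUSG00000026484), on chromosome 1 from 153316657 to 153347933 on the minus strand, had the widest H3K4me3 peak of the members in NSCs, 5400 bp with 381 reads over 92 input reads, wider than 96.7% of marked genes. It reached 4533 bp into the gene. In neurons the peak was 2800 bp wide with 143 reads over 50, and reached 1933 bp into the gene, while its upstream edge stayed at 866 bp. The fold over input was 4.24 in NSCs (3.37 to 5.39) and 2.84 in neurons (2.05 to 4.00), the lowest of the members and above only 5.67% and 7.60% of marked genes. Per kb of peak, Rnf2 had 70.6 reads in NSCs and 51.1 in neurons, more than 21.3% and 79.3% of marked genes. Its neuron peak was thus low in fold and not in read density. Input reads were raised at Rnf2. They stood at 17.04 per kb in NSCs and 17.9 in neurons, beside medians of 15 and 13.3 for genes on chromosome 1 and 10.3 and 8.89 for genes on other chromosomes. The part of that input in the low fold was not tested.

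Ring1 (ENSMUSG00000024325), on chromosome 17 from 34158032 to 34161600 on the minus strand, sits among closely spaced genes. Its start-site peak held 310 reads over 30 input reads across 2800 bp in NSCs and 66 over 15 across 1400 bp in neurons. Within 15 kb there were 4 H3K4me3 peaks in NSCs, covering 9400 bp, and 3 in neurons, covering 5400 bp. The start-site peak also covers the start of a gene without a symbol (ENSMUSG00000065555), 437 bp upstream on the same strand. Farther upstream of Ring1 lie the start sites of H2-Ke6, at 3402 bp, and of Slc39a7 and Rxrb, at 6910 and 7343 bp. A peak with 100 reads over 18 in NSCs and 33 over 9 in neurons lay at the H2-Ke6 start, and a small NSC peak with 32 reads over 8 lay near the 3′ end of Ring1. The strongest peak of the neighbourhood, with 552 reads over 35 in NSCs and 158 over 31 in neurons, was the one that covers the starts of Slc39a7 and Rxrb and not that of Ring1. Unlike Ezh2 and Rnf2, Ring1 had a peak that reached farther upstream (1799 bp in NSCs) than into the gene (1000 bp). The nearest H3K27me3 peak was 16801 bp away in NSCs and 22601 bp in neurons.

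Bmi1, the PCGF partner of the ligases, had H3K4me3 in both cell types and a small H3K27me3 peak in NSCs alone. The gene (ENSMUSG00000026739) is on chromosome 2, from 18598645 to 18608256 on the plus strand. Its start-site H3K4me3 peak held 346 reads over 27 input reads across 3200 bp in NSCs, with the highest NSC fold of the members, 13.1 (8.86 to 20.2), above 84.3% of marked genes. In neurons it held 91 over 18 across 2600 bp, a fold of 5.02 (3.01 to 8.85). The upstream edge moved from 1445 bp before the start site in NSCs to 245 bp in neurons, and the downstream edge from 1754 to 2354 bp. A second peak, 262 reads over 30 in NSCs and 100 over 22 in neurons, covered the start of Commd3, which lies 4595 bp upstream and is read in the same direction, so part of the H3K4me3 around Bmi1 lies at the start of its neighbour. A further NSC peak 3155 bp into Bmi1, with 73 reads over 14, had no counterpart in neurons.

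The H3K27me3 peak of Bmi1 in NSCs ran from 755 to 2554 bp into the gene, on chromosome 2 from 18599400 to 18601199. It held 43 reads over 18 input reads, a fold of 3.34 (1.89 to 6.15). At 1800 bp it was narrower than nearly all start-site H3K27me3 peaks, exceeding 1.06% of the 3598 in NSCs, where the median was 8400 bp. The nearest neuronal H3K27me3 peak was 41846 bp away. Bmi1 was 1 of 2 members with both marks in NSCs, beside Cbx2, against 8.53% of all genes, and in neurons 1 member, Cbx2, had both, against 4.59%. Within 500 bp of the start site Bmi1 had no H3K27me3 in either cell type, so its loss is a call on 1 narrow peak. Chromatin of a cell population does not show whether both marks lay on the same allele.

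The 3 CBX genes, which encode the readers of H3K27me3, had 3 different patterns. Cbx2 and Cbx8 lie near each other on chromosome 11. Cbx2 (ENSMUSG00000025577) runs from 118884276 to 118892584 on the plus strand, and Cbx8 (ENSMUSG00000025578) from 118897619 to 118902283 on the minus strand, with its start 18.0 kb from that of Cbx2. H3K4me3 lay at both start sites in both cell types. H3K27me3 was listed on the far side of Cbx2 alone, upstream of its start, and nowhere between the Cbx2 and Cbx8 start sites in either cell type.

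**Figure D3:**
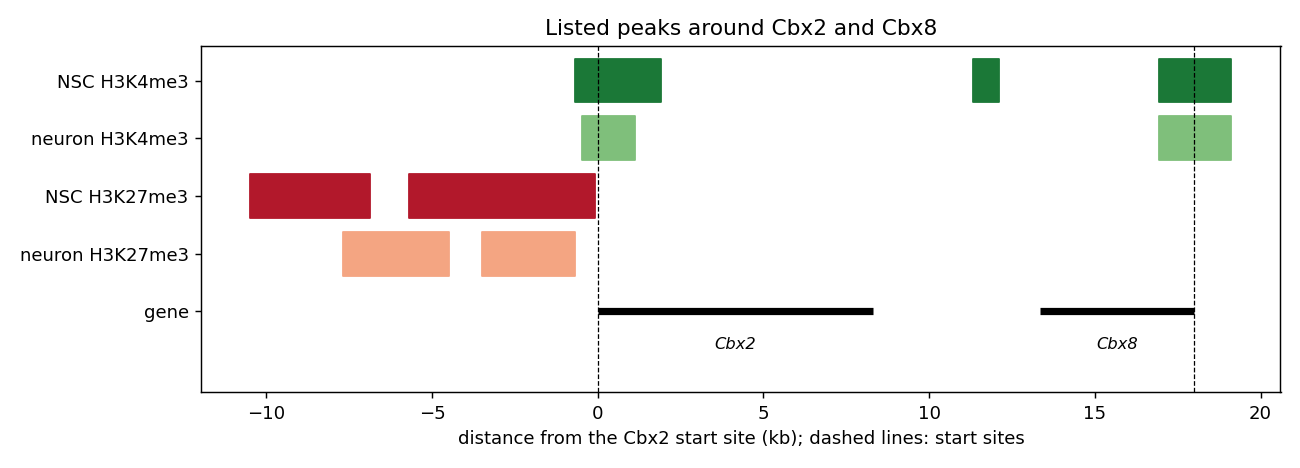
Listed peaks around the Cbx2 and Cbx8 genes (black bars) by library, with distance from the Cbx2 start site in kb on the x axis and dashed lines at the start sites. H3K27me3 ends 0.077 kb before the Cbx2 start in NSCs and 0.677 kb before it in neurons, and H3K4me3 covers the start of each gene in both cell types.

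The H3K4me3 peak of Cbx2 spanned 2600 bp in NSCs and held 273 reads over 25 of input. In neurons it spanned 1600 bp and held 76 over 7. The fold was 11.2 in NSCs (7.42 to 17.6) and 10.8 in neurons (4.99 to 27.7). The other members with H3K4me3 had neuronal folds of 2.84 to 5.22, and that of Cbx2 exceeded 96.9% of marked genes in neurons. The reads themselves did not stand apart, since Cbx2 had 47.5 reads per kb in neurons against a median of 42.3 over all marked genes. The input was low, at 4.38 reads per kb against 9.62 in NSCs and a median of 8.89 in neurons for genes outside chromosome 1, and it rests on 7 reads. Just upstream, an H3K27me3 peak from 118878600 to 118884199 in NSCs held 140 reads over 64 and ended 77 bp before the start site. In neurons the nearest, from 118880800 to 118883599, held 51 over 22 and ended 677 bp before it.

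Over the 15 kb on either side of the Cbx2 start, H3K27me3 covered 9200 bp in NSCs, in 2 peaks with 187 reads over 89 input reads, and 6000 bp in neurons, in 2 peaks with 113 over 44. Per kb of peak this was 20.3 reads in NSCs and 18.8 in neurons. In NSCs the H3K27me3 peak overlapped the upstream end of the H3K4me3 peak, which began 676 bp before the start. In neurons the peaks did not touch, since H3K27me3 ended 677 bp before the start and H3K4me3 began 476 bp before it. Within 500 bp of the start, or with peaks at a false discovery rate (FDR) under 1e-20 alone, Cbx2 had H3K27me3 in NSCs and not in neurons. The share of all genes that differed so at these settings is not given here.

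Cbx8 had the only H3K4me3 peak among the members whose bounds were identical in NSCs and neurons, from 118901200 to 118903399. It held 286 reads over 27 input reads in NSCs, a fold of 10.8 (7.30 to 16.8), and 86 over 24 in neurons, a fold of 3.56 (2.24 to 5.85). With bounds equal, the reads can be set side by side without a change of width: neurons had 0.301 times the NSC reads (0.233 to 0.384). The 0.399 over peaks with identical bounds is a ratio of summed reads, in which large peaks weigh most. Over all genes marked in both cell types, whatever the width, the median ratio was 0.306, and Cbx8 exceeded 47.6% of them. No H3K27me3 was listed within 15 kb of Cbx8, and the nearest peaks, 18084 and 18684 bp away, were those upstream of Cbx2.

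Cbx7, alone among the members, had H3K27me3 and no H3K4me3 at its deposited start site in both cell types. Among all 18778 genes, 3598 had H3K27me3 in NSCs, of which 1601 also had H3K4me3. In neurons these counts were 3355 and 861, so H3K27me3 without H3K4me3 was common in each cell type. The share with this pattern in both cell types is not given here. It is known as the main CBX protein of embryonic stem cells. The deposited gene model (ENSMUSG00000053411) runs on chromosome 15 from 79746237 to 79801549 on the minus strand. In NSCs an H3K27me3 peak of 8000 bp, from 79795200 to 79803199, covered the start site with 123 reads over 51 input reads, a fold of 3.37 (2.41 to 4.77). In neurons the nearest peak was 2000 bp wide, from 79798600 to 79800599, and began 950 bp inside the gene, with 38 reads over 13, a fold of 3.07 (1.60 to 6.28). That distance is just inside the window of 1000 bp, and with a window of 500 bp Cbx7 lost H3K27me3 in neurons. The share of all genes that lost it by that window is not given here. Narrower H3K27me3 peaks in neurons were general. Over 2687 genes marked in both cell types, the median neuron to NSC width ratio was 0.662 (quartiles 0.393 and 0.963). Cbx7, at 0.250, and Cbx2, at 0.500, exceeded 12.5% and 35.0% of these genes. In reads, their ratios of 0.309 and 0.364 exceeded 16.3% and 21.0%, beside a median of 0.660.

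H3K27me3 peaks of the 2 cell types overlapped in the first part of Cbx7. Within 15 kb, NSCs had 2 H3K27me3 peaks with 206 reads over 101 input reads across 13800 bp, and neurons had 4 with 264 over 81 across 12000 bp, counting each peak in full. Per kb of peak these were 14.9 and 22.0 reads. The neuronal peaks reached farther into the gene, the widest of them from 12.8 to 18.7 kb past the start with 144 reads over 41, and another, beyond the 15 kb, from 25.95 to 27.9 kb with 48 over 7. In NSCs the farthest ended 14.9 kb past the start.

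H3K4me3 at Cbx7 was found only deep in the gene. In NSCs a peak of 1600 bp began 37.4 kb past the start with 88 reads over 10 input reads, and another of 1000 bp began 42.8 kb past it with 77 over 6. In neurons there was 1 peak of 400 bp, at 42.95 kb, with 18 over 5. The deposited tables give 1 start site per gene, whereas RefSeq places a Cbx7 start inside the gene, on GRCm38.p6. The absence of H3K4me3 therefore concerns the deposited start alone, as does the count of members that lost the mark. Positions were not converted between the builds, so whether either inner peak lies at the RefSeq start was not tested. The NSC peak that began 37.4 kb past the deposited start had no overlapping peak in neurons.

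**Figure D4:**
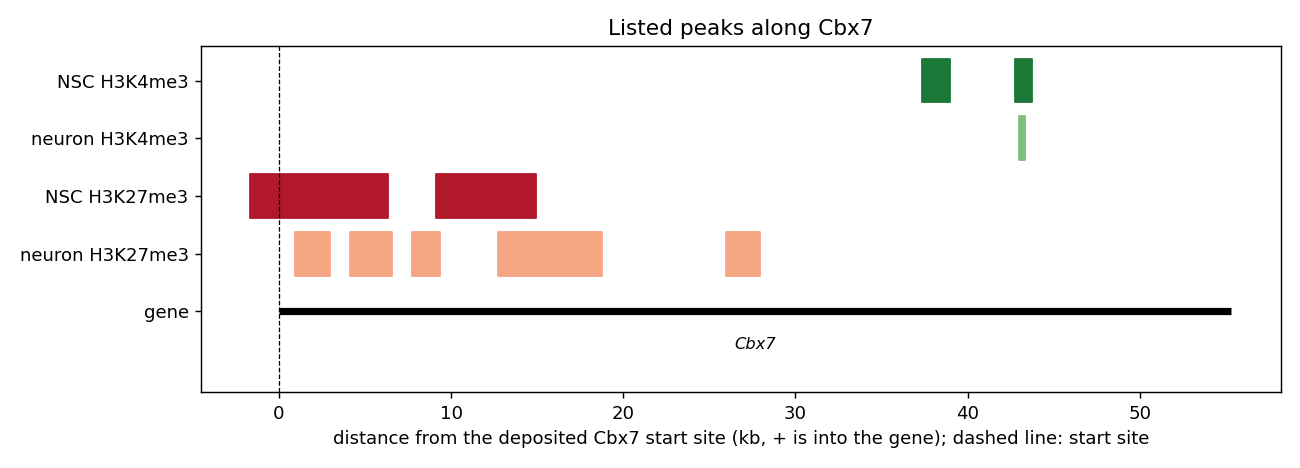
Listed peaks along the deposited Cbx7 gene model (black bar) by library, with distance from its start site in kb on the x axis. H3K27me3 occupies the first part of the gene in both cell types and reaches farther in neurons, and H3K4me3 is found 37.4 to 43.7 kb from the start, in 2 peaks in NSCs and 1 in neurons.

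The members with H3K4me3 were then compared between the cell types against all 11424 genes marked in both. Neurons had 0.213 to 0.382 times the NSC reads in the start-site peak, with a median of 0.301 over the 9 members, and the median over all genes was 0.306 (quartiles 0.248 and 0.365). For 6 of the 9 the counting interval included the median of all genes. Ring1, at 0.213 (0.161 to 0.278), lay below it, and Ezh2, at 0.382 (0.316 to 0.461), and Rnf2, at 0.375 (0.307 to 0.456), lay above. Their ratios exceeded those of 14.6%, 80.1% and 78.2% of all genes, in that order. The interval covers counting error and not the spread among genes. The share of all genes whose own interval includes the median is not given here. Ezh1, Bmi1 and Cbx2, at 0.288, 0.263 and 0.278, fell below the median and Eed and Suz12, at 0.345 and 0.355, above it, in each case with an interval that included it. The 4 PRC2 genes thus had 0.288 to 0.382 of the NSC reads, and the 5 PRC1 genes 0.213 to 0.375.

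Peak width differed as well. In 8 of the 9 the neuron peak was narrower, at 0.500 to 0.938 of the NSC width, and Cbx8 kept its width. Narrowing was general, with a median ratio of 0.733 over all genes (quartiles 0.560 and 0.900) beside 0.812 over the 9 members. Ring1 had a peak 0.500 times as wide in neurons, and per kb its reads stood at 0.426 of those in NSCs, next to the median of 0.419 over all genes. Rnf2 had a peak 0.519 times as wide and 0.724 times the reads per kb, more than 96.6% of all genes. Cbx8 had 0.301 times the reads per kb, more than 7.51% of all genes, and Bmi1 0.324, more than 12.7%. Ezh1, Ezh2, Cbx2, Suz12 and Eed lay between, at 0.503, 0.459, 0.452, 0.387 and 0.368. Reads per kb depend on the width of the listed peak. By the ratio of reads in the whole peak, Rnf2, Cbx8 and Bmi1 exceeded 78.2%, 47.6% and 30.6% of all genes.

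**Figure D5:**
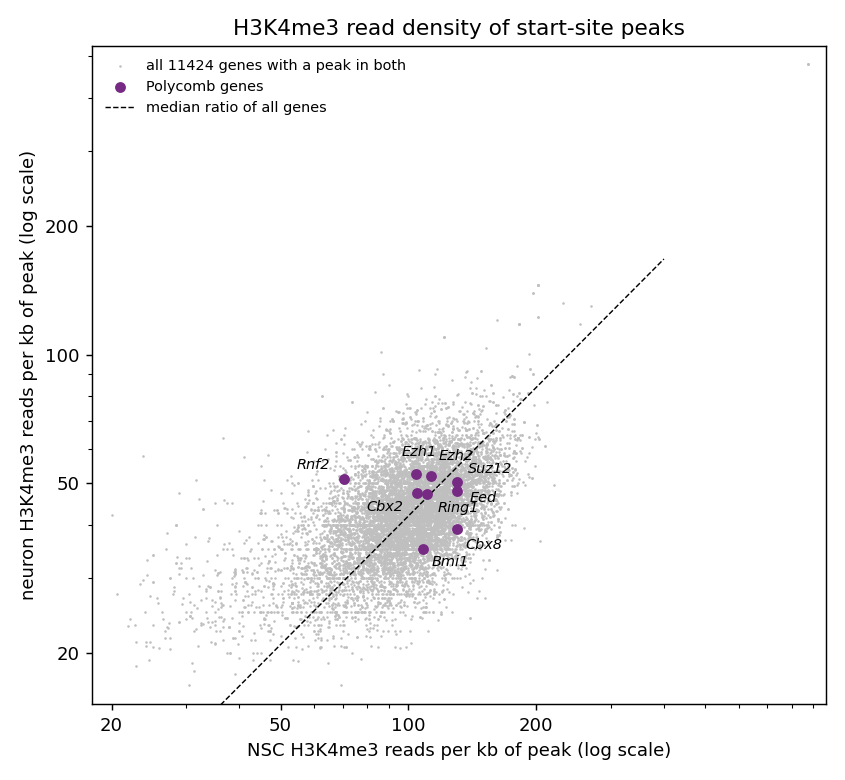
H3K4me3 reads per kb of the start-site peak in NSCs (x axis) and neurons (y axis), both on log scales, for 11424 genes marked in both (grey) and 9 Polycomb genes (purple); the dashed line is the median ratio of all genes, 0.419. Rnf2 lies above the line at 0.724 and Cbx8 and Bmi1 below it at 0.301 and 0.324, values that depend on the width of each listed peak.

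Most of the members' H3K4me3 peaks were wider than the median start-site peak, and the members' median lay within the quartiles of all marked genes. It was 2800 bp in NSCs and 2200 bp in neurons, beside 2200 bp (quartiles 1800 and 3000) and 1800 bp (1200 and 2400) over all marked genes. Of the 9 peaks, 7 were above that median in NSCs and 6 in neurons. Within 15 kb, H3K4me3 covered a median of 3500 bp around the 10 start sites in NSCs and 3000 bp in neurons, beside 2400 and 1400 bp over all genes. The highest cover was at Bmi1, with 9600 and 6800 bp, and at Ring1, with 9400 and 5400 bp, where separate peaks at the start sites of neighbouring genes count in that sum. In fold over input the members were spread around the median of all marked genes, 6 of 9 above it in NSCs and 3 of 9 in neurons.

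The other genes of the pathway were looked up as fixed lists of 52 symbols, of which 49 could be scored. Of these 49, H3K4me3 marked 46 in NSCs and 44 in neurons, beside 70.4% and 61.7% of all genes. H3K27me3 marked 6 and 3, beside 19.2% and 17.9%. Bcor, Usp7 and Ash2l had neither mark at the deposited start in either cell type. H3K4me3 was lost at 2, Phf19 and Bcorl1, where 9.55% of all genes lost it, and gained at none, where 0.831% did. H3K27me3 was lost at 4 and gained at 1, where 4.85% and 3.56% of all genes did. Phf19, a Polycomb-like accessory subunit of PRC2, had an NSC H3K4me3 peak of 119 reads over 24 input reads, and the closest one in neurons lay 42147 bp away. It gained an H3K27me3 peak of 2600 bp in neurons, with 67 reads over 19, and the nearest NSC one was 30347 bp away. It was the only 1 of the 49 that had H3K4me3 alone in NSCs and H3K27me3 alone in neurons. The share of all genes with this combination is not given here, so whether 1 of 49 differs from it cannot be told. Bcorl1, of a corepressor related to Bcor, had an NSC peak of 96 reads over 7, and the closest one in neurons was 83736 bp away.

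Of the 6 pathway genes with H3K27me3 in NSCs, 4 were among the 22 other PRC1 genes, 1 among the 8 scored PRC2 accessory genes and 1 among the 7 deubiquitinase and demethylase genes. Pcgf5 and Rybp, of variant PRC1, had it in both cell types, but near the edge of the window. The Rybp peaks lay 965 bp from the start site in NSCs and 565 bp in neurons, and the Pcgf5 peaks 239 and 962 bp. At Pcgf5 the peak held 229 reads over 104 input reads across 12000 bp in NSCs and 41 over 12 across 1800 bp in neurons, and at Rybp the values were 77 over 49 across 5800 bp and 92 over 26 across 3400 bp. The mark was listed in NSCs and not in neurons at 4 genes. These were Epop, of a PRC2 accessory factor, Pcgf2, a close relative of Bmi1, Auts2, of a PRC1 partner in the nervous system, and Asxl3, of a cofactor of the H2A deubiquitinase. The Auts2 domain was 15600 bp wide with 329 reads over 122, and neurons had no peak closer than 4786 bp. At Asxl3 it was 15600 bp with 322 over 145, and at Epop 9800 bp with 217 over 68, but neuronal peaks lay 1185 and 1017 bp from these start sites, just outside the window. The Pcgf2 peak was small, like that of Bmi1, 1600 bp with 44 reads over 18, and neurons had no peak closer than 64012 bp. All 4 kept H3K4me3 in neurons.

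No H3K27me3 was found at the start sites of the 10 scored genes of H3K4 methyltransferase complexes, where 19.2% of all genes had it in NSCs and 17.9% in neurons. None was found either at Cdkn2a and Cdkn2b, the INK4 locus that Polycomb proteins including Bmi1 are known to repress in cultured cells. These lists are too short for an absence to be read as a result about their genes. In NSCs the H3K4me3 peak of Cdkn2a held 306 reads over 37 of input and that of Cdkn2b 71 over 9. In neurons they held 100 over 9 and 22 over 4. The nearest H3K27me3 to Cdkn2a was 188643 bp away in NSCs and 351158 bp in neurons, and to Cdkn2b 172350 and 367451 bp.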

How the data were processed

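The data are chromatin immunoprecipitation sequencing of 4 libraries with 2 inputs. Reads were processed by the authors with FastQC, Bowtie, SAMtools and SICER on build mm9, per the submitters' processing notes. Their versions and settings, and the handling of duplicates, are not given in the sources read here. Each deposited peak list gives, per peak, the count of immunoprecipitated and input reads, a p-value with its FDR, and a fold (ratio) over input that equals the ratio of the 2 counts times 1 constant per library (1.02, 0.993, 1.40 and 1.05 for NSC and neuron H3K4me3 and NSC and neuron H3K27me3). Bounds fall on a grid of 200 bp, and no listed FDR reaches 0.001. The deposited gene tables name 1 peak per gene; the neuron H3K4me3 table keeps peaks at FDR under 0.001 and the other 3 only those under 1e-20, so the full peak lists were used. Coordinates are deposited positions on mm9, as in the files. The inputs have no file used here, so library totals are unknown and the number of reads limits the precision only through the intervals given.

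Start sites were the start of plus-strand and the end of minus-strand genes. The nearest listed peak within 1000 bp marked a gene. Intervals for a fold come from the exact (Clopper-Pearson) 95% interval of the immunoprecipitated share of the reads. Reads without molecular identifiers are not independent molecules. In the percentages of marked genes exceeded, ties are split evenly. With 1 library a group there was no test. The distance step was tested on simulated peaks, with 0 of 1509 planted distances wrong in each library. The named genes were all members, and of the pathway lists those with H3K27me3 and those that differed in a mark; another gene named by the rule is not reported here. Values for Bcor, Usp7, Ash2l and the INK4 genes, and the promoter words, were chosen after the values were seen. The members and lists were chosen with earlier results of these data known. Of the 52 pathway symbols, 2 (Phf1 and Setd1b) were in no table and 1 (Kmt2d) matched more than 1 gene model, so these were not scored. Alternatives were other windows, peaks at FDR under 1e-20, equal numbers of peaks, the gene tables' peaks, and other areas. The work was done in Python 3.11.15 with scipy 1.17.1, numpy 2.4.6 and pandas 2.3.3, and plotted with matplotlib 3.10.9.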

Additional observations from a re-analysis of the deposited data

How the results depend on the processing

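Of 88 alternative values, 64 stayed within 1.5 times the count or length reported and 24 moved. H3K4me3 stood at 8 or 9 members in NSCs and at 7 to 9 in neurons under every alternative run. With peaks at FDR under 1e-20 alone, 1 member (Ezh1) lost H3K4me3 in place of 0, since its neuron peak has an FDR of 1.45e-17. By the peak that the gene tables name, 2 (Rnf2 and Cbx8) lost it and 1 (Bmi1) gained it in place of 0, although the peak lists hold a peak at each of these starts in both cell types. H3K27me3 in neurons stood at 0 members in place of 2 within 500 bp, at FDR under 1e-20 and by the gene tables, and the members that lost it were then 2 (Cbx2 and Cbx7) in place of 1 (Bmi1). Under the same 3 alternatives, members with both marks numbered 1 in place of 2 in NSCs and 0 in place of 1 in neurons. Shares of all genes are given for the window of 1000 bp alone. The member counts under these alternatives therefore cannot be set beside a background. With a reciprocal overlap of 50%, 1 member (Cbx2) in place of 2 had overlapping H3K27me3 peaks in the 2 cell types. Among pathway genes, H3K27me3 stood at 3 in place of 6 in NSCs by the gene tables, and in neurons, in place of 3, at 1 within 500 bp, 7 within 2000 bp, 1 at FDR under 1e-20 and 0 by the gene tables. With 50 kb on each side, which takes in more of each neighbourhood, the median covered length around members was 6800 bp for H3K4me3 in NSCs in place of 3500 bp, and for H3K27me3 2670.5 bp in NSCs and 700 bp in neurons in place of 0. Beyond these constructions the cause was not tested. No paired analysis was possible because each cell type and antibody had 1 library, and no replicate could be left out. Peaks of few reads, such as the neuron peak of Ezh1 and the H3K27me3 peaks of Bmi1 and Cbx7, are those the depth limits most.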
